A study of Mus musculus with 6 samples.

Results

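The genes described are the mouse translation initiation factors, from the scanning factors to the cap-binding complex, the eIF2 kinases and the 4E-binding proteins. They were taken as every gene whose annotated symbol begins with Eif and a digit on a probe set that names a single gene, each represented by its brightest probe set by mean over the 6 arrays. This gave 47 genes of the 18193 measured. The arrays hold liver RNA of male C57BL/6J mice aged 8 weeks on a normal chow diet, in 3 groups of 2 arrays labelled as biological replicates: fed wild-type mice, wild-type mice deprived of food for 24 h, and Cnot3+/- mice deprived of food for 24 h. The Cnot3+/- animals are labelled as heterozygous for Cnot3, whose product belongs to the main deadenylase of the cell, CCR4-NOT, and how the allele was made is not given in the sources used here. A fed Cnot3+/- group was not analysed here, so the genotype could be compared in the fasted state only. Values are RMA log2 levels, on which a difference of 1 is a 2-fold change. A gene was called changed at an adjusted p under 0.05 in limma, with Benjamini-Hochberg adjustment over all 18193 genes.

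Most mRNAs are translated after the eIF4F complex binds their 5′ cap. In it eIF4E holds the cap, the helicase eIF4A unwinds the leader with the help of eIF4B and eIF4H, and the scaffold eIF4G recruits the small ribosomal subunit through eIF3. The initiator tRNA arrives with eIF2 and GTP, and eIF2B recharges eIF2 after each round. The pathway is a known control point of nutrients. Under amino acid or energy shortage mTORC1 is less active and the 4E-binding proteins, no longer phosphorylated by it, hold eIF4E away from eIF4G, while kinases such as GCN2 phosphorylate eIF2 and so block eIF2B. These switches act on proteins; the arrays measured mRNA levels only.

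Cnot3 itself, read on the brighter of its 2 probe sets, was at 9.45 and 9.60 in fed wild-type, 9.27 and 9.32 in fasted wild-type and 9.40 and 9.16 in fasted Cnot3+/- liver. The fasted groups overlapped, and the genotype difference was -0.01 (95% interval -0.33 to 0.30; limma adjusted p = 0.993), and this probe set did not separate the genotypes. Where this probe set lies relative to the altered part of the gene is not given in the sources used here. The array medians lay between 5.59 and 5.64. The hepatocyte markers Alb, Ttr, Apoa1, Cps1 and Tat were well above them on all arrays, and their summed level spanned 17.1 to 17.2 on the log2 scale. Markers of other cells moved with the groups. On the log2 scale the summed level of 6 macrophage and Kupffer cell markers, all above the array medians, was 11.9 in both fed arrays, 12.2 to 12.3 in fasted wild-type and 12.5 to 13.03 on the fasted Cnot3+/- arrays. The group mean of each of the 6 was higher after fasting and higher again in Cnot3+/-. The 5 endothelial markers summed to 10.4 to 10.5 in fed liver and 10.6 to 10.7 in both fasted groups, but they went both ways with fasting: Lyve1 rose by 1.58 (limma adjusted p = 0.00456), while Kdr and Cdh5 did not pass (-0.21 each), and the median was 0.07. Of the 5 stellate cell and fibroblast markers 3 fell with fasting, Col3a1 (-2.32), Lrat (-1.201) and Col1a1 (-0.65, under the array medians). Dcn rose (0.61), and the median was -0.65. Their summed level went the other way, at 11.84 to 11.91 in fed, 12.01 to 12.04 in fasted wild-type and 11.96 to 12.28 in fasted Cnot3+/- liver. Exocrine pancreas, cholangiocyte, erythroid and adipocyte lists were also read. The 2 measured erythroid genes, 1 of them above the array medians on all arrays, summed to 10.07 to 10.39 in fed liver. Their sum was 9.20 to 9.65 in fasted wild-type and 9.67 to 9.91 in fasted Cnot3+/- liver. The 2 measured pancreas genes summed to 10.4 to 10.5 in fed and 8.91 to 9.22 in fasted liver, with Cpa1 under the array medians, no cholangiocyte or erythroid marker passed with fasting, and the 2 adipocyte genes were under them on all arrays. The first Cnot3+/- array also stood apart in the log2 signal of 3′ over 5′ control probe sets. For Actb it was at 1.06, against 0.43 to 0.62 on the other arrays. For Gapdh it was at 0.31, against -0.14 to 0.06. The part of these shifts in the differences below was not tested, and in whole liver fewer cells of a type and less RNA per cell cannot be told apart.

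After 24 h without food, 2 of the 47 genes rose in wild-type liver and none fell. They were Eif4b and Eif4a2, which encode the helicase eIF4A2 and the cofactor eIF4B that stimulates it. The 2 calls are 4.26% of the members, beside 5.02% of all genes tested (1.87% higher and 3.15% lower). Most members are brighter than the median gene. In a fit of genes above the median level alone, 2 of 43 members and 846 of 9096 genes were called. The median difference over the 47 genes was 0.08, against 0.02 over all genes, and ranged from -0.40 to 0.81. The differences leaned upward: 33 of 47 (70.2%) were above 0, against 54.7% of all genes. In 20 genes (42.6%, against 27.1% of all genes) both fasted wild-type arrays lay above both fed arrays, and in 6 (12.8%, against 23.7%) they lay below. At an unadjusted p under 0.05 there were 10 members (21.3%, against 18.9%), 9 of them higher (19.1%, against 8.77%) and 1 lower (2.13%, against 10.2%). These shares are descriptions and were not tested. On the brightest probe sets the 95% interval stayed within a 2-fold change either way in 45 of 47 genes (95.7%, against 90% of all genes). The exceptions were Eif4b and Eif6.

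**Figure D1:**
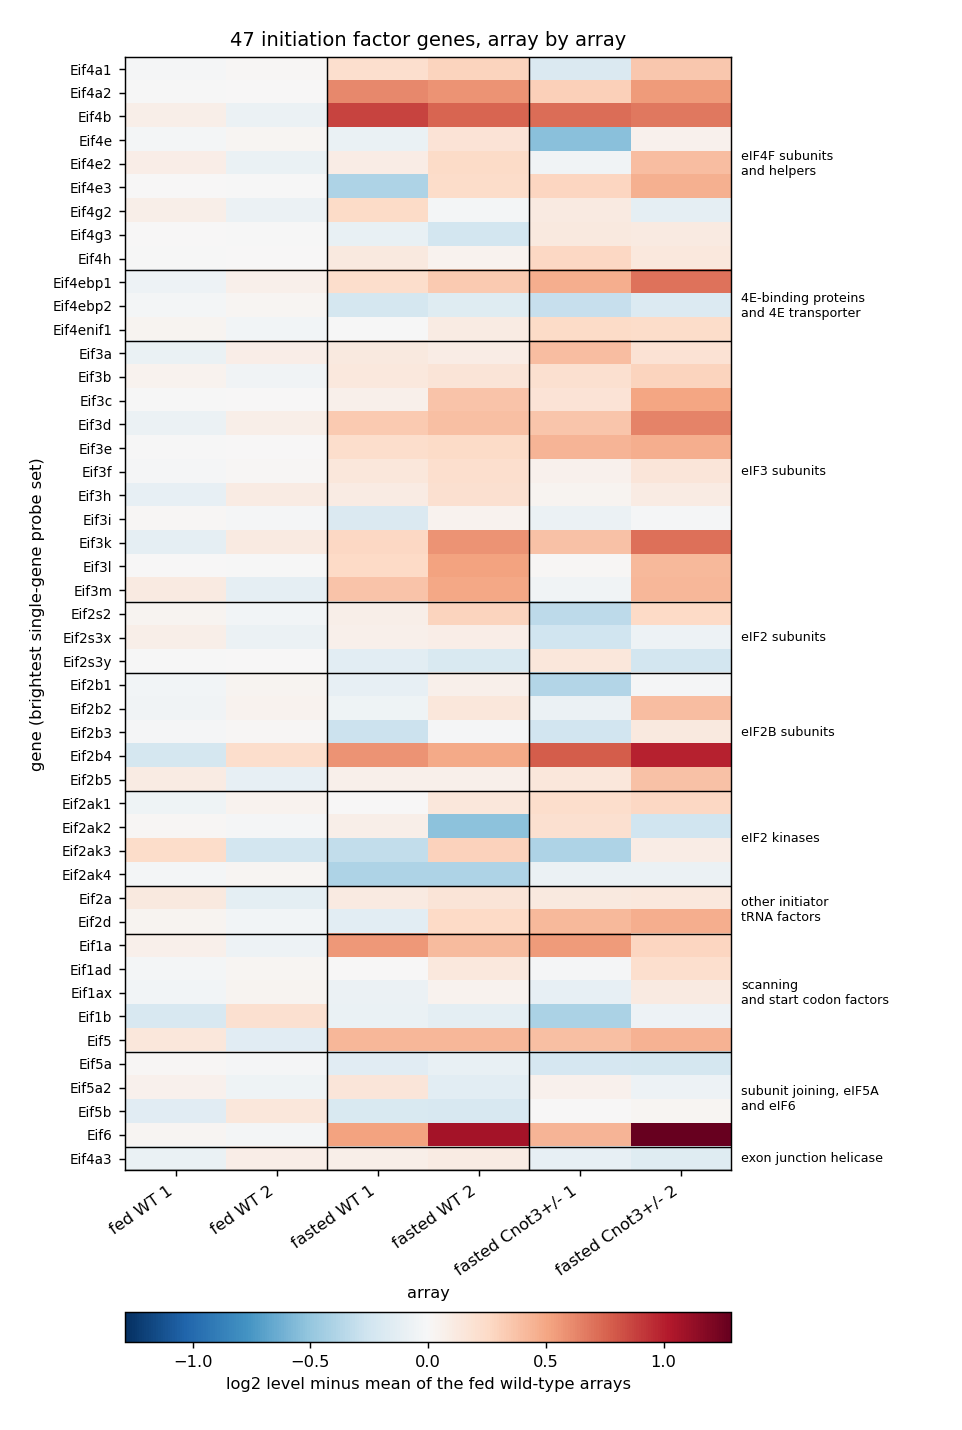
Log2 level of each of the 47 genes (rows, ordered by role) on each of the 6 arrays (columns), minus the mean of the fed wild-type arrays; red is higher and blue lower than fed. Eif4b, Eif2b4 and Eif6 are the darkest red rows, most eIF3 rows are pale red on the fasted arrays, and the first Cnot3+/- array is bluer than the second in Eif4e, Eif4a1 and Eif2b1.

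Eif4b was at 10.71 and 10.56 in fed wild-type, 11.51 and 11.38 in fasted wild-type and 11.35 and 11.31 in fasted Cnot3+/- liver. All 4 fasted arrays lay above both fed arrays. The rise with fasting in wild-type liver was 0.81 on the log2 scale, or 1.75-fold (SE 0.12, 95% interval 0.52 to 1.10; limma adjusted p = 0.0148). The other Eif4b probe sets gave fasting differences of 0.9996 and 1.06, in the same direction. The call was lost when the second fed array (adjusted p = 0.0854), the first fasted wild-type array (0.127) or the second (0.0766) was left out, with the difference between 0.73 and 0.87.

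Eif4a2 was at 12.35 and 12.36 in fed wild-type, 12.97 and 12.93 in fasted wild-type and 12.66 and 12.90 in fasted Cnot3+/- liver. The fed arrays lay 0.014 apart, and every fasted array lay above them. Its rise in wild-type liver was 0.60, or 1.51-fold (SE 0.13, 95% interval 0.30 to 0.90; limma adjusted p = 0.0445). This gene has 1 single-gene probe set, and leaving out any 1 of the 4 wild-type arrays ended the call (adjusted p 0.15 to 0.232) while the difference stayed between 0.58 and 0.62.

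The promoters of these genes are shown because they are the members that rose with fasting. Promoter windows were taken from RefSeq (GRCm38.p6), where 38 of the 47 genes matched an entry. The 200 bases before the annotated start follow, 5′ to 3′ on the strand of the gene, with each GC box (GGGCGG on either strand) in capitals. For Eif4b this is chr15:102073573-102073772 on the + strand, and for Eif4a2 it is chr16:23107268-23107467 on the + strand.
Eif4b: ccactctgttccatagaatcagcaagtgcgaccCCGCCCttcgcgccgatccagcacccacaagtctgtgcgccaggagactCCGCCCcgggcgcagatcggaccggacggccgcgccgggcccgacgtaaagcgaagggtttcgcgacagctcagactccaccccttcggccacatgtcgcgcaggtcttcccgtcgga
Eif4a2: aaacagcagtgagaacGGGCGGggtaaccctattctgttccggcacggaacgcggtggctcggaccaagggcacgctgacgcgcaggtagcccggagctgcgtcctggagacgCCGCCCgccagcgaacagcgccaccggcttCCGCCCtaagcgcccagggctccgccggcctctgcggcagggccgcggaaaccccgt

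The Eif4b stretch holds 2 GC boxes in 67% G and C, and the Eif4a2 stretch holds 3 in 71%. In windows of 300 bases (250 before and 50 after the start, both strands searched), the GC box was in 36 of the 51 windows of members (70.6%) and in 35.7% of all 32851 windows. The E-box CACGTG was in 11 of 51 (21.6%) and 7.15% of all windows. It was found in windows of Eif1b, Eif3a, Eif3f, Eif3k, Eif4a1, Eif4e, Eif4h, Eif5a and Eif5a2. The core of the amino acid response element, TGATGNAA, was in 1 member window (Eif2s3x) and 3.97% of all windows, and the FoxO element GTAAACA in 1 (Eif2s3y) and 3.65%. Neither of the printed stretches holds these letters. Several windows belong to 1 gene, so they are not independent, and a match is a description of letters only.

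The other genes listed with the cap complex did not pass the test with fasting. Eif4e, which encodes the main cap-binding protein, was at 10.35 and 10.39 in fed wild-type, 10.29 and 10.55 in fasted wild-type and 9.84 and 10.43 in fasted Cnot3+/- liver. The groups overlapped, and the fasting difference was 0.04 (95% interval -0.43 to 0.52; adjusted p = 0.943). Eif4a1, the paralogue of Eif4a2, was at 12.59 and 12.63, then 12.83 and 12.89, then 12.43 and 12.96 in the same order of groups. Its fasting difference was 0.25 (adjusted p = 0.527), and the Cnot3+/- arrays lay either side of all others. Of the Eif4g genes, Eif4g2 and Eif4g3 differed by 0.11 (adjusted p = 0.778) and -0.17 (adjusted p = 0.522). Eif4g1 is not analysed here, and Eif4g2 is not taken as a reading of the eIF4F scaffold. Eif4h, whose product helps eIF4A, differed by 0.08. Eif4e2 and Eif4e3, which encode cap-binding paralogues of eIF4E, differed by 0.17 (adjusted p = 0.676) and -0.08 (adjusted p = 0.894). Eif4e2 was the member whose probe sets differed most: another one was at 8.37 and 8.42 in fed, 7.62 and 7.60 in fasted wild-type and 8.00 and 7.63 in fasted Cnot3+/- liver. Its fasting difference was -0.79, with limma adjusted p = 0.0501 in the fit of all single-gene probe sets.

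**Figure D2:**
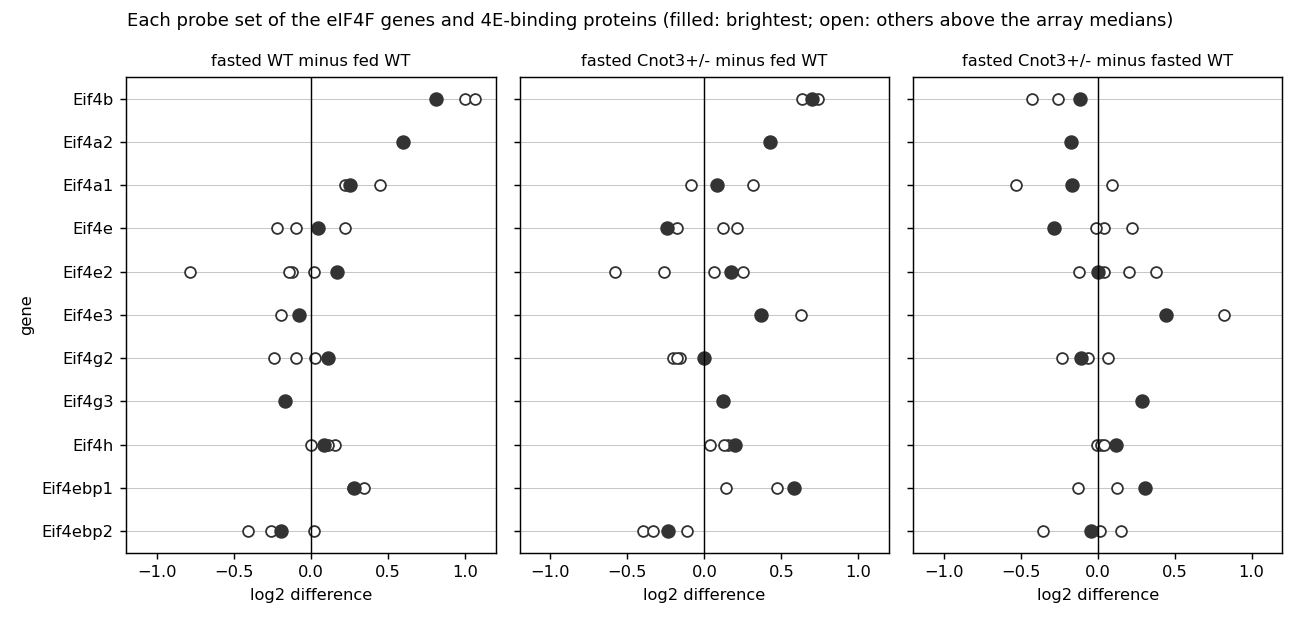
Log2 difference (x axis) on every probe set above the array medians, for the genes listed with eIF4F and the 4E-binding proteins (y axis). The brightest probe set is filled and the others are open. The 3 panels are fasting in wild-type, fasted Cnot3+/- against fed wild-type, and genotype in fasted liver. The 3 Eif4b points lie between 0.81 and 1.06 in the first panel, and 1 Eif4e2 point lies at -0.79.

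Neither measured 4E-binding protein gene passed the test with fasting. Eif4ebp1, whose product 4E-BP1 is the best known repressor of eIF4E, was at 10.78 and 10.90 in fed wild-type, 11.06 and 11.17 in fasted wild-type and 11.31 and 11.54 in fasted Cnot3+/- liver. On this brightest probe set the 3 groups did not overlap and stood in that order. On the second brightest, the fasted wild-type arrays (10.79 and 11.22) and the Cnot3+/- arrays (10.82 and 11.45) overlapped. The fasting difference in wild-type was 0.28 (95% interval -0.03 to 0.59; limma adjusted p = 0.322), which did not pass. Eif4ebp2, which encodes the related 4E-BP2, was at 10.63 and 10.69, then 10.43 and 10.51, then 10.37 and 10.49, with every fasted array below both fed arrays. Its fasting difference was -0.19 (95% interval -0.47 to 0.08; adjusted p = 0.449). Eif4enif1, which encodes the eIF4E transporter 4E-T, differed by 0.05. Eif4ebp3 is read only on a probe set that also names Ankhd1 and is not analysed here.

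Of the 11 measured subunits of eIF3, the scaffold between eIF4G and the small ribosomal subunit, none passed the test with fasting, and 10 had a difference above 0, as did 54.7% of all genes. Their median was 0.21, against 0.02 over all genes, and ranged from -0.07 to 0.43. In 9 of the 11, both fasted wild-type arrays lay above both fed arrays, as in 27.1% of all genes. The 3 largest differences were those of Eif3m (0.43, adjusted p = 0.254), Eif3k (0.42, adjusted p = 0.246) and Eif3l (0.39, adjusted p = 0.272). Eif3d, whose product can itself bind the cap of some mRNAs, was at 10.96 and 11.11 in fed, 11.37 and 11.42 in fasted wild-type and 11.39 and 11.68 in fasted Cnot3+/- liver. All 4 fasted arrays lay above the fed arrays, and the wild-type difference was 0.36 (adjusted p = 0.221). Eif3e was at 11.38 and 11.38, then 11.60 and 11.63, then 11.82 and 11.85, with 3 separate levels and a fasting difference of 0.24 (adjusted p = 0.313). Eif3i, with -0.07, was the only subunit below 0.

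Genes of the eIF2 cycle did not pass with fasting. Of the 3 measured eIF2 genes, Eif2s2 differed by 0.18, and its 6 probe sets ranged from -0.42 to 0.18. Eif2s3x differed by 0.08, with 3 probe sets from 0.02 to 0.78, and Eif2s3y by -0.16. Of the 5 eIF2B genes, Eif2b4, which encodes the delta subunit that takes part in sensing phosphorylated eIF2, moved most. It was at 9.64 and 10.10 in fed wild-type, 10.45 and 10.36 in fasted wild-type and 10.65 and 10.86 in fasted Cnot3+/- liver, and the groups did not overlap. The wild-type difference was 0.53, or 1.45-fold (95% interval 0.12 to 0.94; limma adjusted p = 0.15). The fed arrays of this gene lay 0.46 apart, a wide gap beside the median of 0.07 for the 47 genes in that group. The other 4 subunits lay between -0.14 and 0.06.

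The 4 eIF2 kinase genes gave no call with fasting. Eif2ak4, which encodes the amino acid sensor GCN2, was dim: 5.89 and 5.94 in fed, 5.52 and 5.52 in fasted wild-type and 5.84 and 5.84 in fasted Cnot3+/- liver. The fasted wild-type values lay under the array medians and are not shown to be above background. The fasting difference of -0.40 did not pass (adjusted p = 0.0993) and, with the fasted group at background, is a bound on its size only. Eif2ak1, Eif2ak2 and Eif2ak3, which encode the heme-regulated kinase HRI, the double-stranded RNA sensor PKR and the endoplasmic reticulum kinase PERK, differed by 0.07, -0.23 and -0.01. Eif2ak3 had the least certain difference of the 3, since its fed arrays were at 8.46 and 7.98 and its fasted wild-type arrays at 7.91 and 8.52.

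Among the factors that find the start codon, Eif1a was at 9.58 and 9.45 in fed, 10.07 and 9.92 in fasted wild-type and 10.06 and 9.79 in fasted Cnot3+/- liver. Every fasted array lay above the fed arrays, and the wild-type difference was 0.48 (SE 0.14; adjusted p = 0.111). Taking the mean of its probe sets in place of the brightest gave 0.52 and a call (adjusted p = 0.0448). Eif5, which encodes the GTPase-activating protein of eIF2, was at 12.16 and 11.87, then 12.44 and 12.44, then 12.40 and 12.46. On this brightest probe set the fed arrays were again lowest, and the fasting difference was 0.43 (adjusted p = 0.136). Over its 5 probe sets the fasting difference ranged from -0.06 to 0.53. On another of them the Cnot3+/- arrays, at 10.42 and 10.62, overlapped the fed arrays, at 10.62 and 10.35. There the genotype difference was -0.50 (SE 0.14), against -0.02 on the brightest. Eif6, whose product keeps the large ribosomal subunit from joining too early, was at 10.75 and 10.70 in fed, 11.24 and 11.80 in fasted wild-type and 11.16 and 12.01 in fasted Cnot3+/- liver. The fasted arrays were higher but far apart, and the difference of 0.80 did not pass (SE 0.29; adjusted p = 0.191). On the second Eif6 probe set the difference was 0.10. Eif5a, whose product helps ribosomes through difficult peptide bonds, differed by -0.12 and Eif5b, which encodes the subunit-joining GTPase, by -0.20. Eif4a3 and Eif5a2 were not above the array medians on any array.

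**Figure D3:**
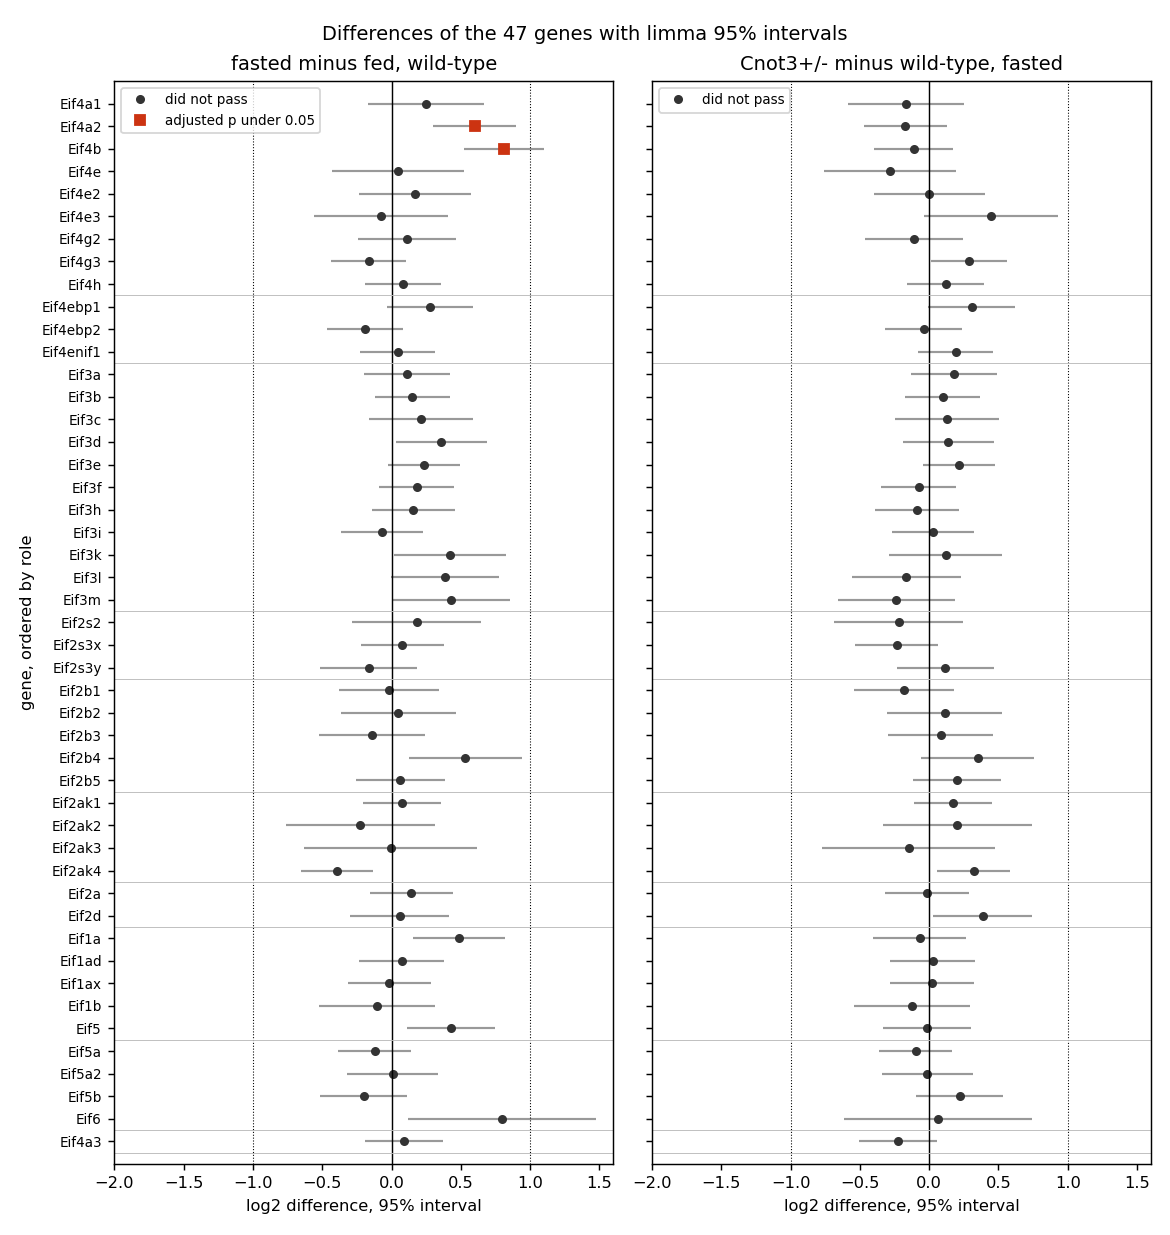
Log2 difference with its limma 95% interval (x axis) for each of the 47 genes (y axis, by role), for fasting in wild-type liver (left) and genotype in fasted liver (right); red squares passed an adjusted p of 0.05 and dotted lines mark a 2-fold change. Each gene is shown on its brightest probe set. Eif4b and Eif4a2 are the only red squares, and all 47 intervals on the right lie within the dotted lines.

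Between fasted Cnot3+/- and fasted wild-type liver no initiation gene passed the test, and no gene of the 18193 did (0%, limma). At an unadjusted p under 0.05 there were 3 of 47 members (6.38%) and 5.56% of all genes (3.3% higher and 2.25% lower). The difference was above 0 in 26 members (55.3%, against 49.6%). The members' differences ran from -0.28 to 0.44 with a median of 0.02, against -0.00 over all genes. On the brightest probe sets the 95% interval stayed within 2-fold either way in all 47 genes, and in 96.6% of all genes. The lowest bound of any member there was -0.77 and the highest 0.93. This bound does not hold for every probe set above the array medians. Other probe sets of Eif4e3, Eif2s3x and Eif4a1 gave 0.82 (SE 0.21), -0.72 (SE 0.37) and -0.53 (SE 0.27). The brightest of these genes gave 0.44, -0.23 and -0.17. On the brightest probe sets both Cnot3+/- arrays lay above both fasted wild-type arrays in 14 genes (29.8%, against 17.5% of all genes). They lay below them in 5 (10.6%, against 18.5%). These directions depend on the probe set. Of 27 members with more than 1 probe set above the array medians, 9 had the same genotype sign on all of them. For fasting 18 of the 27 did, and for fasted Cnot3+/- against fed 16.

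The 3 members with an unadjusted p under 0.05 were all higher in Cnot3+/-. Eif2ak4 was 0.32 higher on the dim values given above (unadjusted p = 0.0227), which bounds the size of the difference and does not measure it, and its second probe set was under the array medians on all arrays. Eif2d, which encodes a factor that can deliver tRNA without eIF2, was at 9.53 and 9.46 in fed, 9.36 and 9.75 in fasted wild-type and 9.92 and 9.96 in fasted Cnot3+/- liver. Both Cnot3+/- arrays were the highest of the 6, with a difference of 0.38, or 1.31-fold (95% interval 0.03 to 0.74; adjusted p = 0.863). Its other probe sets above the array medians gave 0.24 and 0.31. With probe sets ending in _s_at, _x_at or _a_at left out, Eif2d was read on a probe set above the medians on 2 of 6 arrays, with 0.02. Eif4g3 was at 9.36 and 9.34, then 9.26 and 9.11, then 9.48 and 9.47, the lowest in fasted wild-type, and its genotype difference was 0.29 (95% interval 0.02 to 0.56; adjusted p = 0.863).

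Of the cap-binding genes, Eif4e3 had the largest genotype difference of the 47, 0.44 (95% interval -0.04 to 0.93; adjusted p = 0.863), from 8.37 and 9.001 in fasted wild-type to 9.03 and 9.22 in Cnot3+/- liver. Its other probe set gave 0.82. Eif4e had the lowest, -0.28 (95% interval -0.76 to 0.19, adjusted p = 0.876), and there the first Cnot3+/- array, at 9.84, was 0.59 below the second. For Eif4e2 the difference was 0.001 on the brightest probe set and ranged from -0.12 to 0.38 over its 5 probe sets. For Eif4ebp1 the difference was 0.31 (95% interval -0.01 to 0.62; adjusted p = 0.863), or 1.24-fold, on the brightest probe set and 0.13 and -0.13 on the others, so its direction depends on the probe set. For Eif4ebp2 it was -0.04 (adjusted p = 0.973). For the genes that rose with fasting, Eif4b and Eif4a2, the genotype differences were -0.11 (95% interval -0.40 to 0.17; adjusted p = 0.916) and -0.17 (adjusted p = 0.876).

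Over the 47 genes, replicates of the same group were less alike in the fasted groups. The median absolute gap between the 2 arrays of a group over the 47 genes was 0.07 for fed wild-type, 0.11 for fasted wild-type and 0.21 for Cnot3+/- mice, against 0.14, 0.14 and 0.17 over all genes. In fasted Cnot3+/- liver 35 of 47 genes (74.5%, against 56.4% of all genes) were higher on the array labelled replicate 2, and in fasted wild-type 33 (70.2%, against 54.3%). The widest gaps were those of Eif6 (0.85) in Cnot3+/- and Eif4e3 (0.64) in fasted wild-type liver. The array labelled replicate 1 of Cnot3+/- is the one with the high Actb and Gapdh 3′ over 5′ signals and the highest macrophage marker sum. Their part in these gaps was not tested.

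Fasted Cnot3+/- against fed wild-type liver joins the effect of fasting with that of genotype, and shares its fed arrays with the first comparison and its Cnot3+/- arrays with the second. On their brightest probe sets 3 of the 47 genes rose here and none fell (6.38%, against 7.56% of all genes, 3.88% higher and 3.68% lower). Eif4b rose by 0.70, or 1.62-fold (SE 0.12; limma adjusted p = 0.0186). Eif2b4 rose by 0.88, or 1.84-fold (SE 0.17, 95% interval 0.47 to 1.29; adjusted p = 0.0267), and Eif4ebp1 by 0.58, or 1.5-fold (SE 0.13, 95% interval 0.27 to 0.90; adjusted p = 0.0427). The values for fasting in wild-type liver were 0.81, 0.53 and 0.28 for these genes in turn, and those for genotype -0.11, 0.35 and 0.31. Eif4a2, with 0.42, did not pass (adjusted p = 0.102). A dimmer probe set of Eif2s2, at 9.33 and 9.23 in fed and 8.71 and 8.73 in Cnot3+/- liver, fell by 0.56 in the fit of all single-gene probe sets (adjusted p = 0.0475), while the brightest Eif2s2 probe set differed by -0.04. At an unadjusted p under 0.05 there were 11 members, all higher (23.4%, against 21.3% of all genes in either direction, 11% higher and 10.3% lower). Both Cnot3+/- arrays lay above both fed arrays in 22 genes (46.8%, against 24.6%) and below them in 4 (8.51%, against 23.4%), and the difference was above 0 in 31 (66%, against 50.5%). On the brightest probe sets the 95% interval stayed within 2-fold in 45 of 47 genes (95.7%, against 88.4%), the exceptions being Eif2b4 and Eif6.

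These calls rest on few arrays. In a fit of the arrays of these 2 groups alone only Eif4b passed (adjusted p = 0.043), and leaving out 1 array at a time left at most 1 of the 47 genes called: Eif4b without the first fed array (0.77), Eif2b4 without the second fed array (1.11), Eif6 without the first Cnot3+/- array (1.29) and none without the second. For Eif4ebp1 the second brightest probe set gave 0.47 with adjusted p = 0.41, and its dimmest one 0.14. The eIF3 genes again had no call and 10 of 11 differences above 0, with a median of 0.25 against 0.00 over all genes. The largest were Eif3k (0.54, adjusted p = 0.121), Eif3d (0.50, adjusted p = 0.0842) and Eif3e (0.45, adjusted p = 0.0539), and the 2 genes Eif6 (0.86, adjusted p = 0.138) and Eif2d (0.44, adjusted p = 0.144) also did not pass. Eif3e passed when the variance was allowed to follow the level (adjusted p = 0.04).

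**Figure D4:**
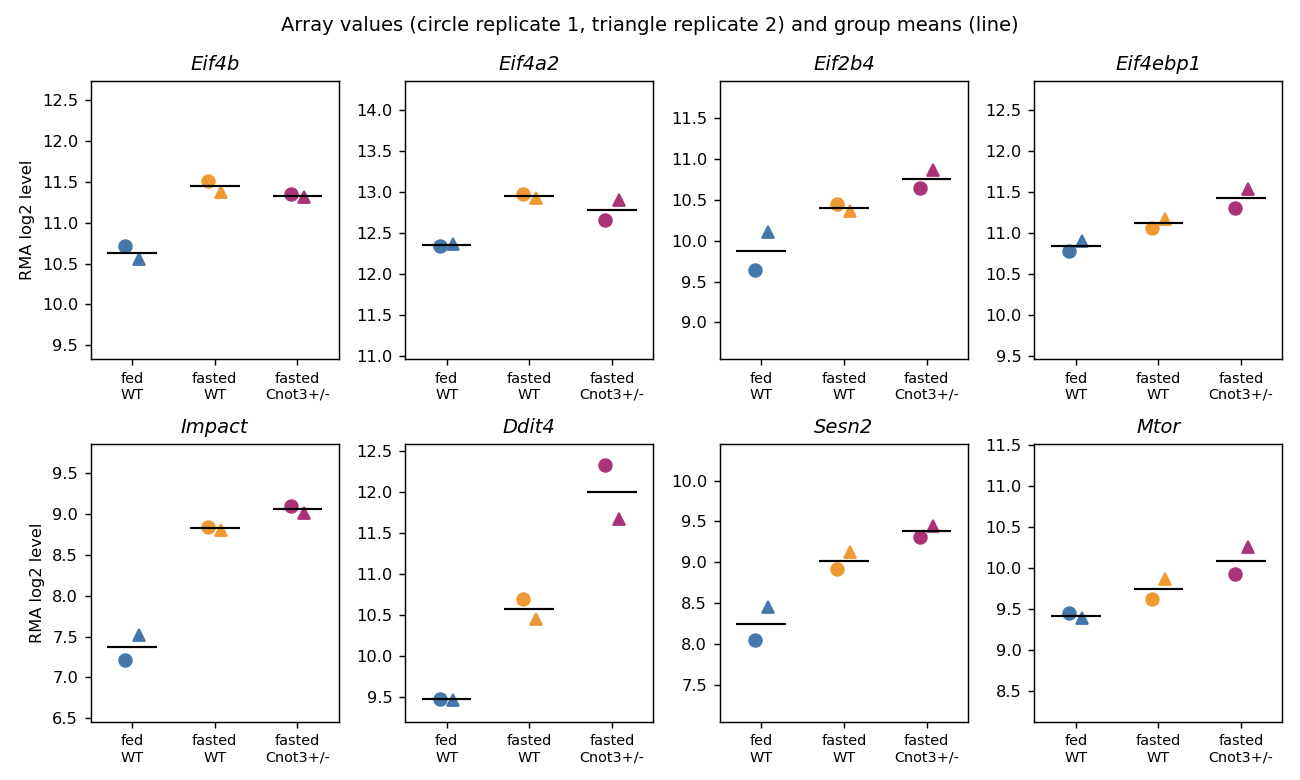
RMA log2 level (y axis, its own range in each panel) on each array of the 3 groups (x axis) for the 4 called initiation genes, top, and 4 called genes of the upstream lists, bottom; circles are replicate 1, triangles replicate 2 and lines group means. On these brightest probe sets Eif4b and Eif4a2 step up between fed and fasted wild-type, while Eif4ebp1, Ddit4 and Mtor stand higher again in fasted Cnot3+/-.

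Genes that surround initiation were read from lists of its regulators, of elongation and termination, of mTORC1 and of the response to phosphorylated eIF2. In the list of other initiation regulators, 1 of 30 measured genes rose with fasting in wild-type liver, beside 1.87% of all genes. It was Impact, which encodes an inhibitor of GCN2 activation, at 7.21 and 7.52 in fed, 8.84 and 8.81 in fasted wild-type and 9.10 and 9.01 in fasted Cnot3+/- liver. All 4 fasted arrays lay far above the fed arrays, with a wild-type difference of 1.45 (SE 0.14; limma adjusted p = 0.00363). On its second probe set the difference was 0.41 (adjusted p = 0.227). Gigyf1, which encodes a partner of the cap-binding paralogue eIF4E2, rose in fasted Cnot3+/- against fed by 0.64 (adjusted p = 0.0346), from 8.00 and 7.99 to 8.79 and 8.48; without either fed array or the first Cnot3+/- array it did not pass (adjusted p 0.111 to 0.134). Of 13 measured elongation and termination genes none passed in any comparison. The smallest limma p with fasting was that of Etf1, the release factor (0.76, adjusted p = 0.0868). Next came Dhps (-0.54, adjusted p = 0.155) and then Eef2k, the kinase that inhibits eEF2 (-0.56, adjusted p = 0.237).

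In the mTORC1 list, 2 of 40 measured genes rose with fasting and none fell, a share close to the 5.02% of all genes called (1.87% higher). Ddit4, which encodes the mTORC1 inhibitor REDD1, was at 9.47 and 9.46 in fed, 10.70 and 10.45 in fasted wild-type and 12.33 and 11.67 in fasted Cnot3+/- liver. The 3 groups did not overlap. The wild-type difference was 1.11 (SE 0.21; limma adjusted p = 0.0338), and the genotype difference of 1.43 did not pass (adjusted p = 0.766). Sesn2, which encodes a leucine sensor upstream of mTORC1, was at 8.05 and 8.45, then 8.91 and 9.12, then 9.31 and 9.45, and rose with fasting by 0.77 (SE 0.17; adjusted p = 0.0466). Both fasting calls ended when any 1 of the 4 wild-type arrays was left out (adjusted p 0.119 to 0.204 for Ddit4 and 0.0574 to 0.246 for Sesn2). In fasted Cnot3+/- against fed 5 of the 40 rose, beside 3.88% of all genes: Ddit4 (2.53), Sesn2 (1.13), Irs2 (1.52), Pdpk1 (0.78) and Mtor (0.67). Mtor, which encodes the kinase itself, was at 9.45 and 9.39 in fed, 9.62 and 9.87 in fasted wild-type and 9.92 and 10.25 in fasted Cnot3+/- liver, the 3 groups apart, with adjusted p = 0.0455 against fed and 0.187 on its second brightest probe set. Without either fed array or the second Cnot3+/- array Mtor and Pdpk1 did not pass (adjusted p 0.134 to 0.173 and 0.0584 to 0.0699), nor did Irs2 without the second fed array (0.114). The list's median difference was 0.01 with fasting, against 0.02 over all genes.

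Of 24 measured genes that are induced when eIF2 is phosphorylated, 3 rose with fasting, beside 1.87% of all genes: Atf5 by 1.11 (adjusted p = 0.0106), Fgf21 by 4.62 (adjusted p = 0.0194) and Sesn2, which is on both lists. Atf5, a transcription factor translated when eIF2 is phosphorylated, was at 10.78 and 10.74 in fed, 11.81 and 11.93 in fasted wild-type and 11.71 and 12.08 in fasted Cnot3+/- liver. Fgf21, a hormone of the fasted liver, was at 5.54 and 5.70 in fed liver, around the array medians, and at 9.32 and 11.14 in fasted wild-type, so the difference is a lower bound. Without 1 wild-type array the fasting calls ended in 3 of 4 cases for Atf5 (adjusted p 0.0626 to 0.0807) and in 3 of 4 for Fgf21 (0.0815 to 0.0956). Atf4, which encodes the main effector, was at 10.83 and 11.26, then 10.71 and 11.02, then 11.02 and 11.17, with overlapping groups. Asns, an asparagine synthetase gene controlled by Atf4, was at 7.87 and 7.73 in fed, 8.13 and 8.49 in fasted wild-type and 9.02 and 9.19 in fasted Cnot3+/- liver, all groups apart. Its genotype difference was 0.80 (SE 0.16; unadjusted p = 0.00127, adjusted p = 0.863), and it rose by 1.30 in fasted Cnot3+/- against fed (adjusted p = 0.00523). Trib3, which encodes a feedback inhibitor of this response, rose there by 1.66 (adjusted p = 0.036), and did not pass without either fed array or the second Cnot3+/- array (adjusted p 0.103 to 0.16). The fifth gene that rose there besides Atf5, Fgf21 and Asns was Sesn2, so 5 of 24 rose, beside 3.88% of all genes. No gene of the list was called lower. With fasting the wild-type arrays lay above both fed arrays in 7 of the 24 and below them in 2. The 2 were Aars (-0.46, limma adjusted p = 0.0863) and Slc7a5 (-0.29, adjusted p = 0.239). In fasted Cnot3+/- against fed they differed by -0.41 each and did not pass. The list's median was 0.27 with fasting, against 0.02 over all genes.

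The genes whose levels followed Eif4b most closely over the 6 arrays were 1810014B01Rik (Pearson r = 0.998), Slc27a1 (0.995) and Slu7 (0.995). Slc27a1, which encodes a fatty acid transporter, rose with fasting by 2.18 (limma adjusted p = 0.00123) and Slu7, which encodes a splicing factor, by 0.57 (adjusted p = 0.0382). These are descriptions over 6 arrays in 3 groups, where the feeding state moves many genes at once: 530 of 18146 other genes had r over 0.9.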

How the data were processed

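Liver RNA of 6 mice was hybridised to 1 array each. Per the labels' protocols, RNA was extracted with ISOGEN, purified with RNeasy columns and turned into biotinylated cRNA, starting from 10 ug. The deposited values are RMA log2 levels prepared by the authors (per the submitters' processing notes, where the version is not given in the sources used here). The table has 45101 probe sets. Of these 34945 were annotated with 1 gene, and the brightest stood for each of 18193 genes.

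Differences were tested with limma 3.58.1 (R 4.3.3) on the 3 group means of all 6 arrays together (residual df 3, prior df 4.24), with Benjamini-Hochberg adjustment over all genes. SE is the moderated standard error. With 2 arrays a group, their number limits the precision. The p-values rest on the spread between these arrays, moderated toward that of the other genes. The procedure was tested on simulated data. Signals not above the median of their array were treated as background, and a difference from them as a bound.

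Members and lists were chosen with earlier results of these data known. Named are genes listed with eIF4F, 4E-binding proteins and eIF2 kinases, the called members, and up to 12 members of smallest p per comparison. Of the lists, called genes or those of smallest p are named. Atf4, Aars and Slc7a5 were chosen after their values were seen. So were members given only as the rest of their role, and the other probe sets of Eif4e2, Eif4a1 and Eif5. Replicate numbers were checked and not taken as pairs. Eif1, Eif2s1, Eif3g, Eif4g1 and Eif4e1b are not analysed here.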

Additional observations from a re-analysis of the deposited data

How the results depend on the processing

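Other processing was tried on every comparison. For fasting in wild-type liver (2 initiation genes called, 913 genes in all) the initiation genes called fell to 1 with every probe set tested and to 1 on the second brightest probe sets, where 187 genes were called. Leaving out 1 array left 0 to 1 initiation genes and 137 to 458 genes in all. Each such fit has 1 array in a group, assumed to vary like the others, and 2 residual degrees of freedom. For fasted Cnot3+/- against fed wild-type (3 and 1375) testing every probe set called Eif4b, Eif2b4 and Eif2s2 but not Eif4ebp1. The initiation genes called were 1 without probe sets ending in _s_at, _x_at or _a_at. On the second brightest probe sets they were 0 (262 genes). They were 1 in a fit of the 2 groups alone (857 genes) and 0 to 1 without 1 array (597 to 929 genes); without the first Cnot3+/- array the 1 gene was Eif6 (1.29, adjusted p = 0.0358). For genotype, 0 initiation genes passed under all alternatives, and without 1 array 0 to 2 genes in all. The fasting difference of Eif4e2 turned to -0.79 (limma adjusted p = 0.0313) when probe sets ending in _s_at, _x_at or _a_at were left out. Same-numbered arrays deviated together between the fasted groups (r = 0.45), and not with fed (0.04 and -0.01). The numbers were not taken as pairs because the labels state no pairing. With the replicate number as a block, 2 initiation genes passed for fasting, 0 for genotype and 4 for fasted Cnot3+/- against fed, where Eif3k was added (adjusted p = 0.0335). For genotype, 1335 genes had an unadjusted limma p under 0.05 with the block, against 1011 without it, and 5 members against 3. The block assumes the same replicate effect in all 3 groups. The cause of these shifts was not tested.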
